A study of Xenopus tropicalis with 2 samples.

Results

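Barcodes with few detected genes, taken to stand for RNA outside nuclei, were compared with nuclei in a single-nucleus RNA-seq experiment on whole Xenopus tropicalis embryos. Whether the RNA of these barcodes lay outside nuclei was not tested. The embryos were wild type, were at stage 10.5, the early gastrula, and carried no transgene or treatment other than that all were homogenised together and their nuclei purified through sucrose and glycerol. Nuclei were fixed and barcoded in rounds of wells, so that a barcode is a combination of wells that one nucleus, or loose RNA in a well, can pass through. The 2 samples were sublibraries 1 and 2 of 1 pool of nuclei, which makes them technical replicates. Their spread measures the splitting and sequencing of that pool and not the difference between embryos, and with no biological replicate no p-value was computed.

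The class taken to stand for RNA outside nuclei was every barcode with fewer than 200 detected genes, called low-gene barcodes here. It held 189449 of the 215209 barcodes, 94708 in sublibrary 1 and 94741 in sublibrary 2. Nuclei were barcodes with at least 1500 genes and at most 8000 transcripts, counted as unique molecular identifiers (UMIs), and numbered 3728 and 3712. A low-gene barcode held a median of 46 UMIs and a nucleus 4421. Together the low-gene barcodes held 11030547 UMIs, 12.5% of all, and the nuclei 35158341 UMIs, 39.8% of all. The remaining 17286 barcodes with at least 200 and fewer than 1500 genes and 1034 barcodes with more than 8000 UMIs were in neither class. Reads per UMI were 2.40 in low-gene barcodes and 2.70 in nuclei. The same well combination occurred in both sublibraries for 104889 of all barcodes, 164 of the nuclei and 81076 of the low-gene barcodes. These counts depend on the size of each class, and no comparison with a random draw of combinations was made. They therefore do not show a difference between the classes.

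A frog egg is loaded with maternal RNA and mitochondria before fertilisation, and transcription from the embryo's own genome starts at the blastula. In the early gastrula the cytoplasm therefore still holds messages laid down in the oocyte, while the nucleus holds the newly made RNA of the zygotic genes, much of it not yet spliced. Mitochondrial transcripts are made and kept inside mitochondria, which sit in the cytoplasm, and serve in nuclear preparations as a mark of cytoplasm carried along.

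UMIs were summed over each class in each sublibrary and expressed as CPM, the UMIs of a gene per 1000000 UMIs of that class. Of 21821 genes, 10015 had at least 100 UMIs in both classes together and were compared. A gene was called higher in a class when its CPM was at least 2-fold higher there in each of the sublibraries. By this rule 552 genes, 5.51% of those compared, were higher in low-gene barcodes. Only 11 genes, 0.11%, were higher in nuclei, and this count was unstable, at 28 without sublibrary 1 and 30 without sublibrary 2, where the rule then rests on a single sublibrary. The 552 genes made up 1.82% of the UMIs of low-gene barcodes and 0.653% of those of nuclei.

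The levels of most genes were close in the 2 classes. The ratio of low-gene barcodes to nuclei lay within 2-fold for 92.5% of the genes. Its median was 0.10 on the log2 scale, the quartiles were -0.12 and 0.41, and the range ran from -1.74 to 2.96, so that medians of gene lists given here are to be read against 0.10. Of the 100 genes with most UMIs in each class, 86 were shared. The cell adhesion gene cadm1 led both classes, with 6010 and 5904 CPM in the low-gene barcodes of sublibraries 1 and 2 and 7657 and 7579 CPM in nuclei. The next most abundant genes were likewise high in both, among them the zinc finger gene zc3h13 (4538 CPM in low-gene barcodes, 3354 in nuclei), the chromatin remodeller chd7 (3450 and 4082), nucleolin or ncl (4242 and 3533) and tcf7l1, a maternal repressor at Wnt target genes (3046 and 3946). The deposited counts do not separate spliced from unspliced RNA, so loose nuclear RNA, broken nuclei and cytoplasm cannot be told apart for these genes.

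**Figure D1:**
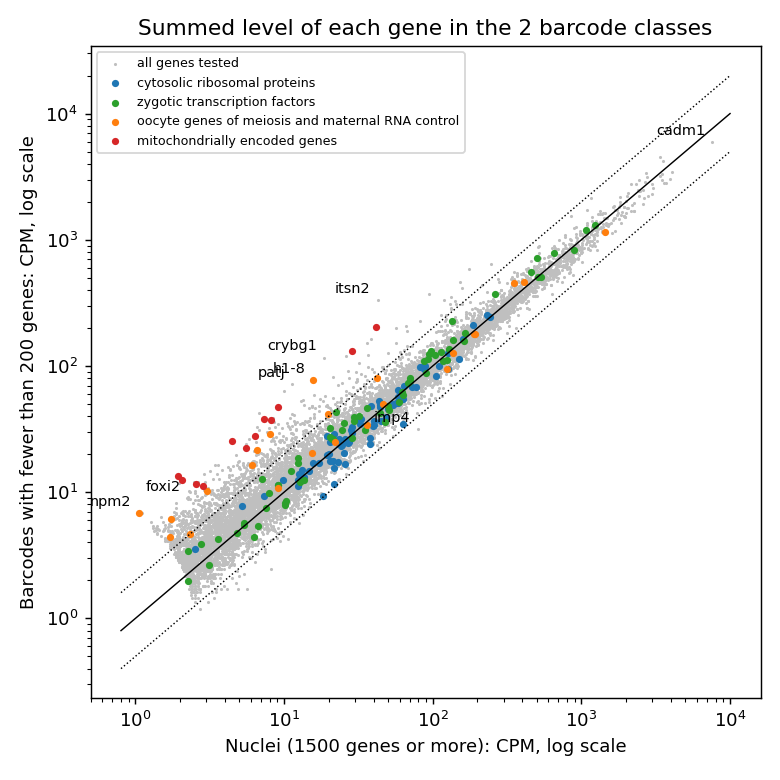
Level of each of the 10015 genes compared, as CPM on log axes, in nuclei (horizontal) and in barcodes with fewer than 200 genes (vertical), summed over both sublibraries. The solid line marks equal levels and the dotted lines a 2-fold difference, and the empty lower left corner is the minimum of 100 UMIs. The 12 mitochondrially encoded genes in red and itsn2 lie above the upper dotted line, while ribosomal protein genes in blue and zygotic transcription factor genes in green lie along the solid line.

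The clearest difference was in the mitochondrial genome. All 12 mitochondrially encoded genes with enough UMIs were higher in low-gene barcodes, with a median log2 ratio of 2.26 (2.33 in sublibrary 1, 2.18 in sublibrary 2) and a range from 1.98 to 2.79. Their summed level was 612 and 560 CPM in the low-gene barcodes of the sublibraries, against 121 and 119.7 CPM in nuclei, and the groups did not overlap. ND5, a subunit of respiratory complex I at 11859 to 13676 of the mitochondrial genome, had most UMIs, with 217 and 192 CPM against 42.9 and 39.7 CPM, a 4.96-fold difference (95% interval 4.64 to 5.30, exact, counting error only). COX1, the catalytic subunit of cytochrome oxidase, stood at 141 and 123 CPM against 28.4 and 28.5 CPM. ND6, the one protein gene on the opposite strand of the mitochondrial genome, had the highest ratio of the list at 2.79 but rested on 148 and 68 UMIs. ND4L had the lowest, at 1.98. The difference was seen in every one of the 12 wells of the first barcoding round, with 438 to 803 CPM in low-gene barcodes and 90.6 to 178 CPM in nuclei.

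Messages for mitochondrial proteins that are encoded in the nucleus did not share this difference. The 41 genes of the nuclear-encoded respiratory chain had a median log2 ratio of 0.05, and the 49 genes of mitochondrial ribosomal proteins had a median of 0.07, with 2 called higher in low-gene barcodes (mrps5, 1.36, and mrps35, 1.18). Both medians lie below the 0.10 of all genes.

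Outside the mitochondrial genome, the highest ratio of all genes was that of itsn2 (chromosome 5, 145757537 to 145829334 of the RefSeq annotation of UCB_Xtro_10.0), which encodes intersectin, an adaptor of endocytosis. Its level was 331 and 335 CPM in the low-gene barcodes and 44.4 and 41.0 CPM in nuclei, a 7.78-fold difference (95% interval 7.33 to 8.27). wdr44, which encodes a protein that binds the endosomal GTPase Rab11, stood at 43.9 and 41.7 CPM against 6.81 and 6.68 CPM. patj, a scaffold of the apical Crumbs polarity complex, stood at 72.9 and 70.8 CPM against 10.1 and 12.6 CPM. crybg1 stood at 116 and 117 CPM against 18.9 and 18.4 CPM, and vat1, which encodes a membrane protein, at 33.8 and 32.4 CPM against 6.75 and 6.33 CPM. In each of these 5 genes both low-gene values lay several-fold above both nuclear values. The genes were picked by this ratio and by a 2-fold difference in each sublibrary, so this separation is no separate support. itsn2 was higher in low-gene barcodes in 12 of 12 wells, at 228 to 502 CPM against 33.3 to 52.6 CPM. The wells split the same UMIs by which itsn2 was picked, so they are no separate support either.

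The 15 highest ratios among genes with a symbol belonged to 6 mitochondrial genes, the 5 genes just named and 4 genes of the egg and early embryo. Nucleoplasmin, npm2, which stores histones in the egg, had 6.32 and 7.28 CPM in the low-gene barcodes and 1.19 and 0.91 CPM in nuclei, with a log2 ratio of 2.70 ± 0.42 (mean of sublibraries ± SD, n = 2 technical replicates). h1-8, the linker histone of the oocyte and cleavage embryo, had 82.3 and 72.8 CPM against 14.7 and 16.5 CPM, a 4.97-fold difference (95% interval 4.46 to 5.54), and was higher in 12 of 12 wells. kpna7, an importin alpha of the egg in mammals, had 11.9 and 11.8 CPM against 1.93 and 2.00 CPM. dppa2, a gene of pluripotent cells and the early embryo in mammals, had 7.40 and 6.37 CPM against 1.25 and 0.97 CPM. In all of these the sublibraries of one class stood away from the other class, which follows from the same choice by ratio and rule. The wells of h1-8 split the same UMIs and are no separate support. npm2 and dppa2 rest on only 37 and 39 UMIs in nuclei.

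Among the 23 genes compared from a list of oocyte genes of meiosis and maternal RNA control, 9 were called higher in low-gene barcodes and none in nuclei, against a background of 5.51%. Besides npm2 and h1-8 these were ccnb1, zp4, zar1l, patl2, ccna1, zp2 and wee2, with log2 ratios from 1.08 to 1.85. They include cyclins B1 and A1, the oocyte kinase wee2, the translation regulators zar1l and patl2 and the egg envelope proteins zp2 and zp4. The list as a whole was split, with a median of 0.40. ccnb2 had a log2 ratio of -0.09, plk1 of -0.10 and ccne1 of -0.11, and the deadenylase gene cnot6l, with most UMIs of the list, stood lower in low-gene barcodes at -0.33. Summed over the list, the level was 3087 CPM in low-gene barcodes and 3092 CPM in nuclei.

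Copies of some genes differed from each other in their ratios. pou5f3.3, the Pou5f3 gene of the oocyte in Xenopus, had 25.1 and 26.4 CPM in low-gene barcodes and 10.1 and 9.36 CPM in nuclei, a log2 ratio of 1.40 ± 0.14 (SD, n = 2). Its neighbours on chromosome 8, which are also on the list of maternal factors, were level. Their ratios were 0.01 ± 0.06 for pou5f3.2 and -0.04 ± 0.03 for pou5f3.1. ccnb1 had a ratio of 1.85 and ccnb1.2 of 0.35. The sources used here do not say how reads shared by such copies were counted, so these values may mix copies.

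**Figure D2:**
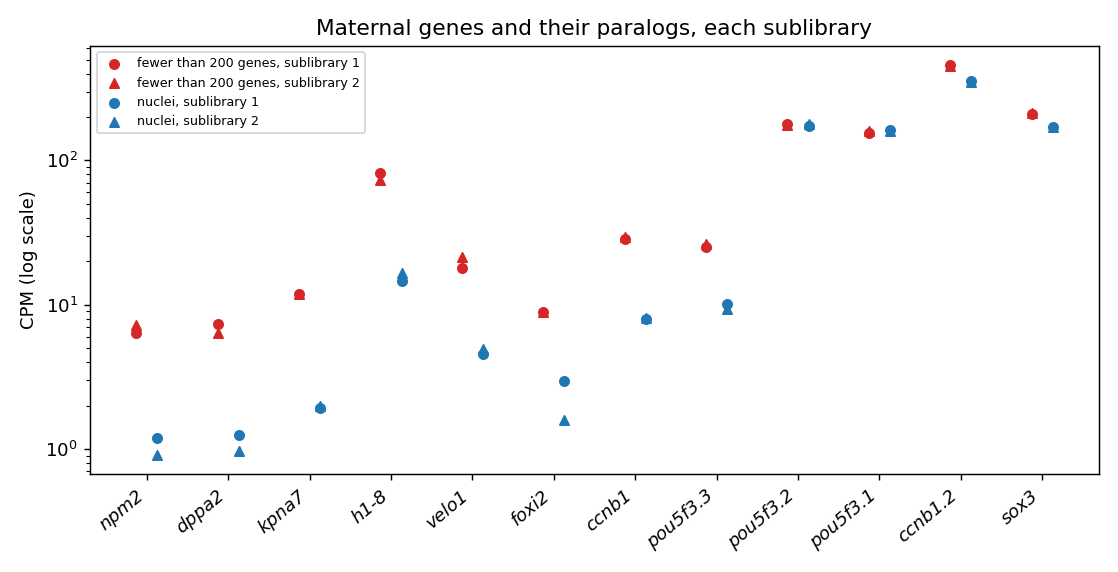
CPM on a log axis of 12 maternal genes and their paralogs in low-gene barcodes (red) and nuclei (blue), with sublibrary 1 as circles and sublibrary 2 as triangles. From npm2 to pou5f3.3 both red points lie above both blue points, while pou5f3.2 and pou5f3.1 differ by 1.01-fold and 1.03-fold and ccnb1.2 and sox3 are higher in low-gene barcodes by 1.28-fold and 1.24-fold.

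Foxi2 and Sox3 are the maternal ectodermal transcription factors that the study is concerned with. foxi2 (chromosome 7, 24018956 to 24022142) had 8.85 and 8.92 CPM in low-gene barcodes and 2.95 and 1.60 CPM in nuclei, a 3.90-fold difference (95% interval 2.88 to 5.31) from 98 and 80 UMIs. The nuclear values of foxi2 differed from each other by more than its low-gene values did. sox3 (chromosome 8, 55346463 to 55348089) was far more abundant and nearly level, with 209 and 215 CPM against 171 and 169.6 CPM, a log2 ratio of 0.31 ± 0.04 (SD, n = 2). Of the 16 maternal ectoderm and germ layer factors compared, foxi2 and pou5f3.3 were the only ones called in low-gene barcodes. The other 14 lay between -0.37 for tcf7l1 and 0.38 for smad2, a transducer of Nodal signals, and the whole list summed to 8585 CPM in low-gene barcodes and 9460 CPM in nuclei. Among them stood vegt, the maternal factor of the vegetal pole, at 0.14, ctnnb1 or beta-catenin at 0.16 and ep300, the histone acetyltransferase, at 0.03.

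The germ plasm is a store of RNA and mitochondria at the vegetal pole of the egg from which the germ line forms. Of the 19 genes compared from a list of germ plasm and vegetal cortex RNAs, 3 were called higher in low-gene barcodes, against 5.51% of all genes. velo1, which encodes an organiser of the Balbiani body, had 17.9 and 21.5 CPM against 4.54 and 4.91 CPM, a log2 ratio of 2.06. dazl, a germ cell translation regulator, had a ratio of 1.74 and plin2, a lipid droplet coat protein, 1.76. Others did not differ by as much, among them ddx4 at 0.08, vegt at 0.14 and trim36 at -0.13, and the list's median of 0.17 was close to that of all genes. Both genes of the vitellogenin and egg envelope list with enough UMIs, zp4 and zp2, were called. zp4 differed between the sublibraries, with a ratio of 2.49 in sublibrary 1 and 1.31 in sublibrary 2.

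The 13 glycolysis genes compared had a median log2 ratio of 0.95, and 5 were called, against 5.51% of all genes and 10.3% of genes with at least 100 and fewer than 200 UMIs. pkm, which encodes pyruvate kinase, had 13.4 and 10.6 CPM against 2.38 and 2.91 CPM, and the others called were pgk1 (1.52), ldhb (1.45), gpi (1.42) and aldoa (1.27). These are genes of low level, from 47 to 184 UMIs in low-gene barcodes. The gene with most UMIs of the list, the hexokinase gene hk2, had a ratio of -0.12, and through it the summed level differed by only 1.07-fold. The median of the list turned to -0.12 with a minimum of 500 UMIs per gene, which leaves out the 5 called, and was 0.59 without sublibrary 1 and 0.79 without sublibrary 2.

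The RNAs that fill the cytoplasm of most cells did not mark the low-gene barcodes. The 78 cytosolic ribosomal protein genes had a median log2 ratio of -0.0011, with none called in either direction. Their summed level was 3740 and 3795 CPM in low-gene barcodes against 3886 and 3853 CPM in nuclei. The lowest ratio of the list was that of rps27, at -0.98 from 102 and 643 UMIs. Translation factors had a median of 0.10 with 2 of 57 called, eif5b (1.47) and eif2b5, while the helicase gene eif4a1 stood lower in low-gene barcodes at -0.77. Proteasome subunits had a median of 0.01 with none of 31 called. Genes of the secretory pathway and of chaperones of the endoplasmic reticulum had a median of 0.12 with 1 of 34 called, the chaperone hsp90b1 at 1.28. Genes of actin, tubulin and their binding proteins had a median of 0.30, with tpm4 (1.40) the one called of 20.

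Zygotic transcription factor and signalling genes stood near equal in the classes. The 68 zygotic transcription factor genes had a median log2 ratio of 0.15 with none called in either direction, and ranged from -0.49 for evx1 to 0.95 for gsc, the organiser gene goosecoid. Zygotic ligands and antagonists had a median of 0.06 over 34 genes, large cell adhesion and synaptic genes, many of which have long introns, 0.16 over 47 genes, splicing factors 0.07 over 47 genes and chromatin regulators 0.03 over 67 genes. The summed levels of large adhesion genes (3485 CPM against 3924) and chromatin regulators (36543 against 37055) went the other way from their medians, being lower in low-gene barcodes. Among chromatin regulators 2 were called, smarca2 (1.35) and dnmt1 (1.11), and among 33 cell cycle and replication genes 4 were called, mcm6 (1.62), mcm3 (1.60), mcm2 (1.52) and pole (1.35), again against 5.51% of all genes. The 12 histone genes compared included h1-8 and h1-3 (1.32) as the ones called. No name of the list of long noncoding RNAs was in the gene table used.

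**Figure D3:**
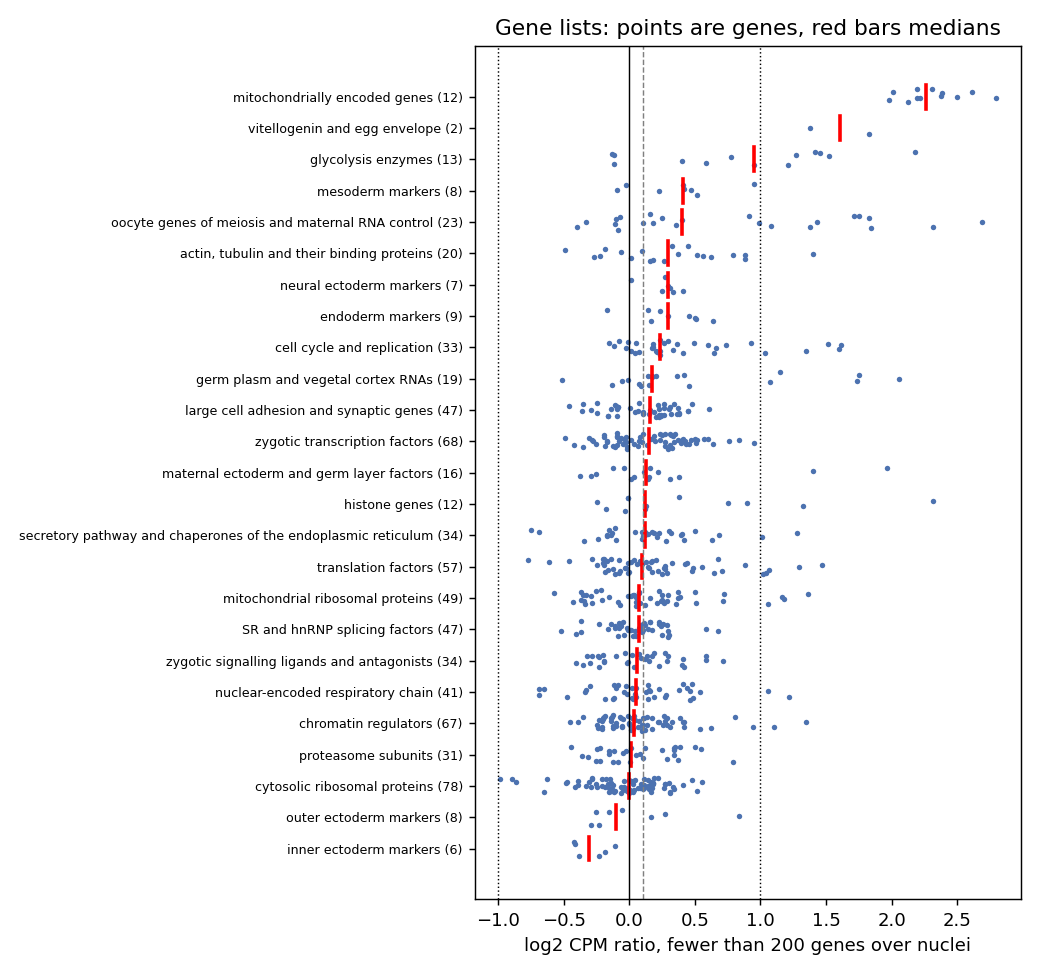
log2 CPM ratio of low-gene barcodes to nuclei for each gene (points) of 25 lists, with the number of genes in brackets and each list's median as a red bar. The dotted lines mark 2-fold and the dashed line the median of all genes, 0.10. The mitochondrially encoded genes all lie to the right of the upper 2-fold line, from 1.98 to 2.79, while ribosomal protein genes centre on a median of -0.0011.

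In all, 45 of the 703 genes of these lists were called higher in low-gene barcodes, a share near the 5.51% of all genes, and none in nuclei. The share called depended on how many UMIs a gene had, from 10.3% of genes with at least 100 and fewer than 200 UMIs to 0.834% of genes with 5000 or more, and the median ratio went from 0.32 to -0.05 over the same range. The span of the gene in the genome mattered little. The median ratio was 0.15 for genes of 10 to 20 kb, 0.02 for 50 to 100 kb and 0.09 for over 100 kb, and Spearman's rho between ratio and span was -0.06 across 10012 genes, which share their libraries and are not independent. Genes under 2 kb had a median of 0.33 without the 12 mitochondrial genes among them.

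Few genes went the other way. imp4 (chromosome 8, 598268 to 620655), which encodes a component of the U3 particle that processes ribosomal RNA in the nucleolus, was the only gene with at least 500 UMIs called higher in nuclei, with 31.2 and 31.9 CPM in low-gene barcodes and 77.7 and 80.4 CPM in nuclei, a 2.51-fold difference (95% interval 2.24 to 2.81). It was lower in low-gene barcodes by nearly the same amount in each sublibrary, by a log2 ratio of -1.31 and -1.33. The transporter gene mfsd3 (4.69 and 3.82 CPM against 11.6 and 9.70 CPM), the transcription factor gene sox15 (a log2 ratio of -1.31 from 21 and 166 UMIs) and sned1, ano4, tbc1d25 and krt222 were the other named genes called, all with 116 to 374 UMIs in nuclei. Smaller differences were steady among abundant genes. cadm1 stood 1.28-fold and col18a1 1.31-fold higher in nuclei, with an SD over sublibraries of at most 0.01 on the log2 scale.

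No gene of the inner ectoderm, outer ectoderm, neural ectoderm, mesoderm and endoderm marker lists was called in either direction. All 6 inner ectoderm markers had ratios below 0, with a median of -0.31 and a summed level of 4223 CPM against 5281 CPM. Mesoderm markers had a median of 0.41 and a summed level of 1768 CPM against 1364 CPM, endoderm markers a median of 0.29, neural ectoderm markers 0.29 and outer ectoderm markers -0.10. These values move with the classes, and their part in the ratios above was not tested.

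Splitting barcodes by their number of genes showed that the difference did not grow evenly toward the smallest barcodes. Mitochondrially encoded genes stood at 438 CPM in barcodes with 1 to 19 genes, 493 with 20 to 49, 496 with 50 to 99 and 770.2 with 100 or more but fewer than 200. The level was highest, 1080 CPM, just above the limit of the class, in the 5735 barcodes with at least 200 and fewer than 500 genes. It was 239 CPM from there to fewer than 1000 genes and 118 CPM from 1000 to fewer than 1500. itsn2 took the same course, with 304, 306, 303 and 388 CPM in the bins of the low-gene class, 494 CPM in the bin above the limit and 72.4 CPM in the bin that starts at 500 genes. Ribosomal protein genes were flat below 200 genes, from 3438 to 3796 CPM, and were highest in the bin that starts at 200 genes, at 5506 and 5605 CPM in the sublibraries, against 3881 CPM with 1500 genes or more. imp4 was lowest in the upper part of the low-gene class, at 29.5 CPM in the bin that starts at 100 genes.

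**Figure D4:**
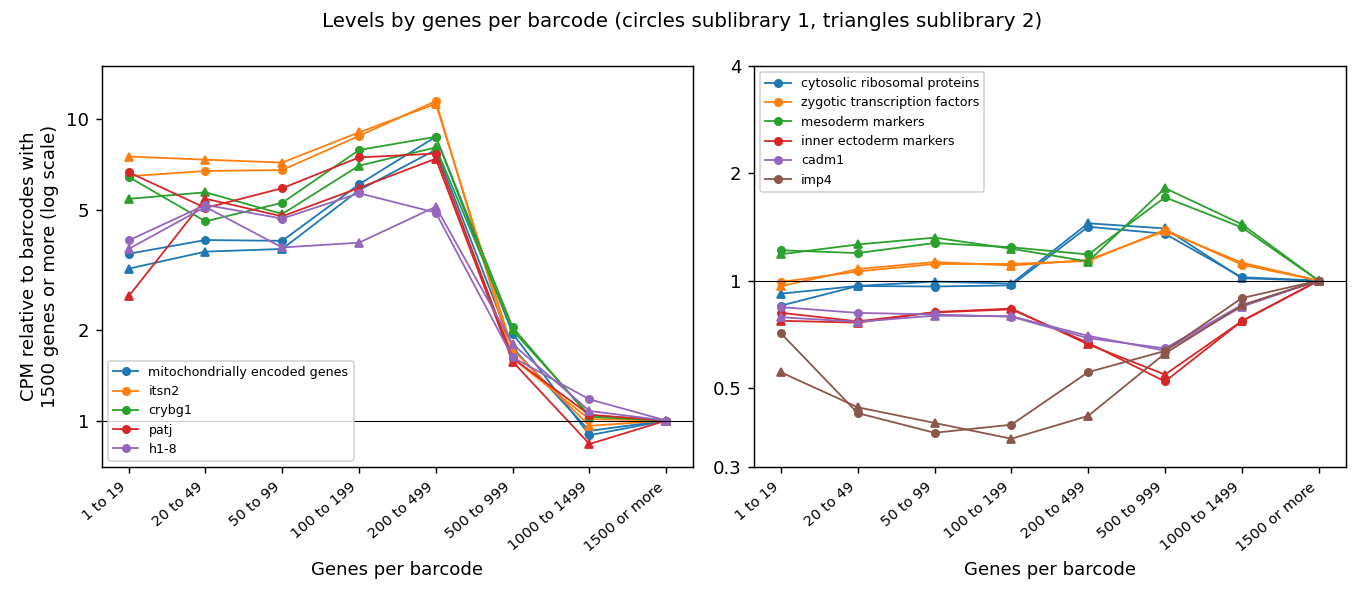
CPM by number of genes per barcode, divided by the CPM of barcodes with 1500 genes or more, on log axes, with sublibrary 1 as circles and sublibrary 2 as triangles. On the left, mitochondrially encoded genes, itsn2 and crybg1 are highest in the bin that starts at 200 genes and near the nuclear level from 1000 genes. On the right, ribosomal protein genes are well above the nuclear level only between 200 and 1000 genes, and cadm1 and the inner ectoderm markers are lowest in the bin that starts at 500 genes.

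Few of the low-gene barcodes held a mitochondrial UMI. The class had only 6463 such UMIs, so most barcodes had none however these were spread, and no comparison with an even spread was made. Of the 189449 barcodes 184196 had none, 4438 had 1, 576 had 2 and 239 had 3 or more. The 815 barcodes with at least 2 made up 0.43% of the class and 0.957% of its UMIs, and held 31.3% of its mitochondrial UMIs. Splitting the class in this way was chosen after its values had been seen, and mitochondrial genes were left out of the totals. The level of itsn2 was 269 CPM in low-gene barcodes without a mitochondrial UMI, 1283 CPM with 1, 2996 CPM with 2 and 3660 CPM with 3 or more (95% Poisson interval 3060 to 4343). In nuclei, split the same way, itsn2 stood at 38.1, 41.6, 54.2 and 92.3 CPM. Low-gene barcodes without any mitochondrial UMI were thus still far above nuclei. cadm1 took the opposite course in low-gene barcodes, with 6027, 4908, 3453 and 2961 CPM, as did tbxt, the mesodermal factor Brachyury, with 728, 638, 339 and 279 CPM, the last from 10 UMIs.

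Against the low-gene barcodes with no mitochondrial UMI, 365 of 6983 genes, 5.23%, were at least 2-fold higher in each sublibrary in the 5253 with 1 or more, and 75 were lower. A gene with 0 UMIs in a sublibrary was set at 3 counts there, which kept some genes from being called lower. One was cfap206, with 1 UMI in barcodes with a mitochondrial UMI and 221 in those without. The 365 and the 75 can therefore not be set against each other. The 12 highest of the 365 genes with a gene symbol were serpinf2, itsn2, crybg1, wdr44, gdf9, svil, flnb, limch1, sptbn1, rnf145, cldn4 and uaca, at 5.48-fold to 6.90-fold. Among them svil encodes supervillin, flnb filamin B and sptbn1 a spectrin, all of which bind actin, and cldn4 encodes a claudin of tight junctions. The list of actin, tubulin and their binding proteins did not follow these genes. In this split 0 of its 17 genes were called in either direction, and its median log2 ratio was -0.02, beside -0.05 over all genes. sptbn1 stood at 1763 and 1771 CPM with a mitochondrial UMI, 303 and 312 CPM without, and 94.5 CPM in nuclei. gdf9, the growth factor of the oocyte, stood at 48.1 CPM with and 7.70 CPM without, and 3.41 CPM in nuclei. cldn4 and rnf145 had not stood apart between low-gene barcodes and nuclei, with log2 ratios of 0.50 and 0.24.

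Barcodes with a mitochondrial UMI were deeper, with a median of 86 UMIs against 45. Within barcodes of at least 100 and fewer than 200 genes the medians were 150 and 134 UMIs, and there itsn2 was 7.19-fold, crybg1 7.11-fold and sptbn1 6.38-fold higher with a mitochondrial UMI than without. Within nuclei, with 40.7% of UMIs in the 2914 with a mitochondrial UMI, none of 9152 genes was at least 2-fold higher in them in each sublibrary. These nuclei held a median of 4649.5 UMIs, so 1 mitochondrial UMI is a far smaller share of a nucleus than of a low-gene barcode. The split is therefore not alike in the 2 classes, and the count in nuclei cannot be set against that in low-gene barcodes.

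Maternal transcripts differed in the size of this difference. h1-8 stood at 75.2 CPM without a mitochondrial UMI and 130.4 CPM with 1 or more. This 1.73-fold difference (95% interval 1.33 to 2.24) was smaller than that of itsn2. Of its 856 UMIs 791 were in barcodes without, which held 95.4% of all UMIs of the class. foxi2 stood at 7.60 CPM without (80 UMIs) and 36.1 CPM with 1 or more (18 UMIs, 95% Poisson interval 21.4 to 57.1), but the latter value was 53.9 CPM in sublibrary 1 and 16.7 CPM in sublibrary 2. Zygotic transcription factor genes had a median log2 ratio of -0.24 between barcodes with and without, zygotic ligands -0.41, splicing factors -0.25 and ribosomal protein genes -0.26, beside a median of -0.05 over all genes. Genes of the endoplasmic reticulum list had a median of 0.39 (0.33 and 0.40 in sublibraries 1 and 2) and oocyte genes of 0.38 (0.33 and 0.38). Other lists of maternal RNA did not go with the oocyte genes. Germ plasm and vegetal cortex RNAs had a median of -0.30 over 15 genes (-0.13 and -0.41 in the sublibraries). Maternal ectoderm and germ layer factors had one of 0.06 over 15 genes (-0.09 and 0.22). The nuclear-encoded respiratory chain had a median of -0.42 over 19 genes.

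**Figure D5:**
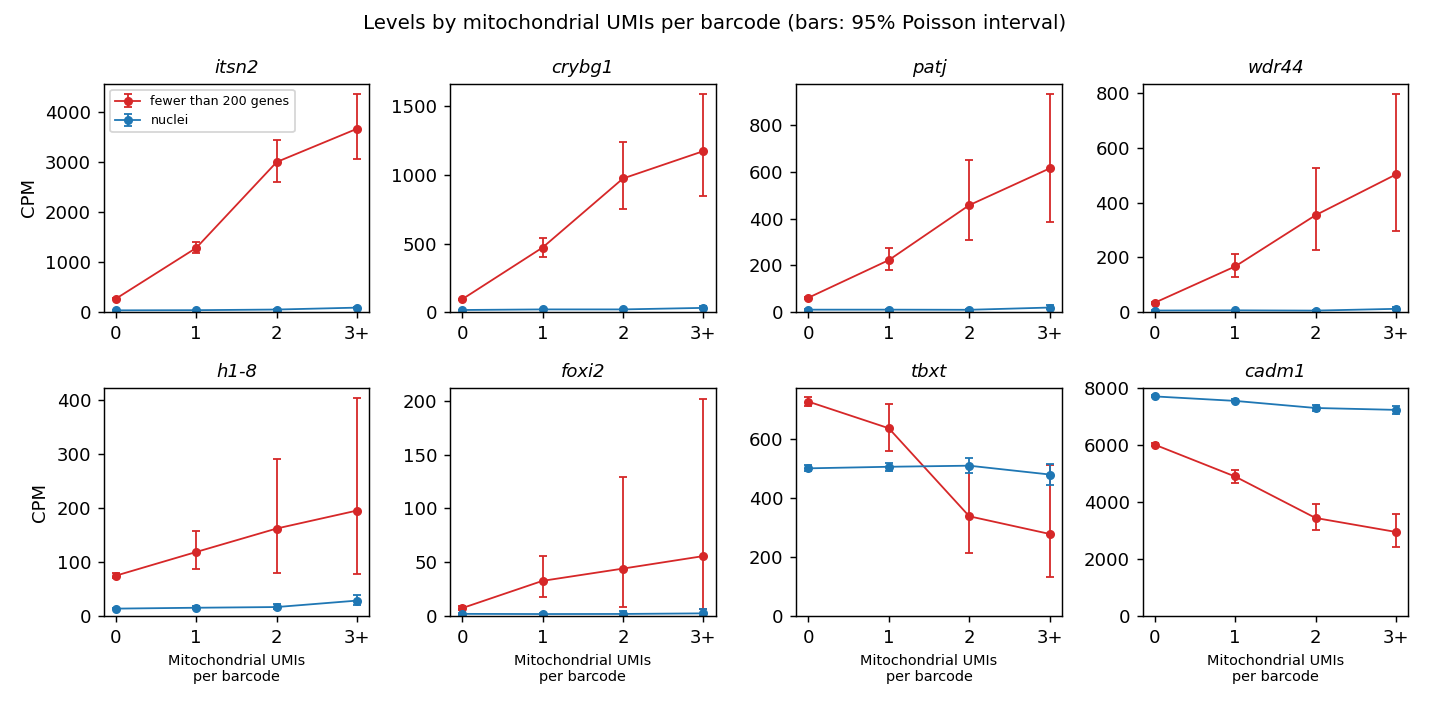
CPM of 8 genes in barcodes with 0, 1, 2 and 3 or more mitochondrial UMIs, for low-gene barcodes (red) and nuclei (blue), with mitochondrial genes left out of the totals and bars for the exact 95% Poisson interval. In red, itsn2 goes from 269 to 3660 CPM and cadm1 from 6027 to 2961 CPM, while the blue line of itsn2 stays at or under 92.3 CPM and that of cadm1 between 7245 and 7718 CPM.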

How the data were processed

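Reads were mapped by the authors to UCB_Xtro_10.0 with version 1.1.4 of Parse Batch Analysis. They deposited unfiltered counts of distinct transcripts (UMIs) for each barcode and gene, and a table of how many genes, transcripts and reads each barcode had. Per the labels, the molecule was polyadenylated RNA. The deposited barcode suffix gave the sublibrary. Nothing was normalised by the authors in these counts. The gene minimum of 1500 for nuclei is the study's, but it leaves 8474 barcodes in these counts, fewer than the nuclei the study states, so the sets differ.

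Counts were summed per class and sublibrary and scaled to CPM (Python 3.11.15, numpy, scipy, pandas). A class with 0 counts was set at 3 counts. Intervals are exact at 95% and cover counting error only. No doublet caller was run, and the limit of 8000 UMIs stood in for one. The calling rule was tested on simulated data. Named genes were the 15 highest and 15 lowest called genes with a symbol, the highest, lowest and most abundant gene of each list, the 10 most abundant genes of each class and the maternal factors, and others named were chosen after their values were seen. Some genes that this rule picks are not reported here. Classes and lists were chosen with earlier results of these data known. Gene positions came from RefSeq, matched by symbol for 10012 of 10015 genes. 14 alternatives were tried, of which 3 were added after seeing the data. The deposited gene table served only to name genes.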

Additional observations from a re-analysis of the deposited data

How the results depend on the processing

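The number of genes called higher in low-gene barcodes, 552, stayed between 422 and 646 under the other limits on barcodes, both scalings and with either sublibrary alone, but was 911 with a gene minimum of 20 UMIs, 181 with 500 UMIs, and 887 when barcodes with at least 200 and fewer than 500 genes took the place of the class. The 11 genes higher in nuclei became 36 with barcodes of fewer than 50 genes, 26 after centring on the median gene, 47 and 1 with minimums of 20 and 500 UMIs, 28 to 30 with 1 sublibrary left out, 23 with at least 50 UMIs per barcode, 53 with barcodes of at least 200 and fewer than 500 genes and 18 without barcodes that held a mitochondrial UMI. The cause of these changes was not tested, except that a lower minimum compares more genes. The median log2 ratio of ribosomal protein genes was 0.10 with fewer than 500 genes, -0.11 after centring, 0.59 with at least 200 and fewer than 500 genes, and -0.065 to 0.0056 with 1 sublibrary left out. That of mitochondrially encoded genes was 2.02 with fewer than 50 genes, 2.44 with fewer than 500, 2.38 with at least 50 UMIs and 3.18 with at least 200 and fewer than 500 genes. That of zygotic transcription factor genes was 0.12 with fewer than 50 genes, 0.19 with fewer than 500, 0.24 with nuclei of at least 2000 genes, 0.11 with no upper limit on UMIs, 0.046 after centring, 0.19 with a minimum of 500 UMIs and 0.34 with at least 200 and fewer than 500 genes. Centring shifts every ratio by the median of all genes, 0.10. Of the named genes called in the main comparison, ano4 changed direction, to 0.081 with at least 200 and fewer than 500 genes. Named genes that were not called also crossed 0 over the alternatives. Among these, rps27 ranged from -1.27 to 0.091 and evx1 from -0.69 to 0.76. Requiring 10 UMIs per barcode changed nothing, as 10 was the lowest count. Both classes occur in each sublibrary and each call already compares them within it, so no further fit with a replicate block was made.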

Other observations

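Pigment granules of the egg are made in the oocyte and lie under the surface around the animal pole. pmel and gpnmb, a pair of genes of melanosome proteins, were both higher in low-gene barcodes, pmel with 13.8 CPM against 5.38 CPM in nuclei (a log2 ratio of 1.36 ± 0.23, SD over sublibraries, n = 2) and gpnmb with 24.9 and 23.1 CPM against 8.68 and 8.73 CPM. Within low-gene barcodes pmel stood at 11.8 CPM without a mitochondrial UMI and 56.2 CPM with 1 or more (28 UMIs), and gpnmb at 21.0 and 88.2 CPM (44 UMIs). The cytolinker gene plec, one of the more abundant transcripts, stood at 2130 and 2151 CPM in low-gene barcodes and 1141 and 1186 CPM in nuclei, and at 8834 CPM in low-gene barcodes with a mitochondrial UMI against 1825 CPM in those without. These genes were chosen after their values were seen.

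Barcodes with at least 500 and fewer than 1000 genes, which belong to neither class, differed from both. Mesoderm markers summed to 2481 CPM there, against 1408 CPM with 1500 genes or more, and inner ectoderm markers to 2784 CPM against 5220 CPM, while the mitochondrially encoded genes were at 239 CPM. Both sublibraries showed each of these, with 2431 and 2532 CPM for mesoderm markers and 2747 and 2823 CPM for inner ectoderm markers.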
